A study of Homo sapiens with 4 samples.

Results

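HepG2 is a human hepatocellular carcinoma line, and MP-HX is a hexane extract of the leaves of the shrub Melicope ptelefolia. The comparison described here set HepG2 cells kept for 24 h in MP-HX at 78 µg/mL against HepG2 cells kept in vehicle at 0.39%, which the study's methods give as DMSO. Its members were all transcript clusters, the probe groups of the array, that the annotation pairs with 1 gene symbol: 16098 of 48226 clusters, which cover 14884 genes. Each gene was read from the cluster that was brightest over the 4 arrays of the series. The other 2 arrays held HCT116, a colorectal carcinoma line, with MP-HX at 60 µg/mL for 24 h and with vehicle labelled 0.3%, and they are used only as a second set of values beside those of HepG2. RNA of 3 cultures was pooled for each array, and each group had 1 array, so that no value has a replicate error and no difference was tested.

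All levels are log2 signal. Log2 fold changes, often given in brackets, subtract the vehicle array from the MP-HX array and refer to HepG2 unless HCT116 is named, so that 1 stands for a 2-fold difference, the threshold used for every count. Since probes differ in brightness, levels of different genes or lists set side by side are only a rough guide to abundance. The median log2 signal over all clusters was 3.97 on the MP-HX array and 4.03 on the vehicle array, and a signal under its own array's median is called dim. The files hold no detection call, so that a fold against a dim signal is uncertain in size. The liver label was borne out by its markers: in HepG2 the median log2 signal of 15 hepatocyte markers was 11.44 with MP-HX and 11.69 with vehicle, while in HCT116 it was 3.58 with MP-HX and 3.62 with vehicle. Albumin (ALB) in HepG2 was at 12.88 with MP-HX and 13.06 with vehicle, whereas in HCT116 it was at 3.16 with MP-HX and 3.57 with vehicle. TM4SF4, a membrane protein of liver and gut, was the lowest of the 15 in HepG2, at 4.22 with MP-HX and 4.77 with vehicle. Of the marker lists of other cell types, 10 colon epithelium markers had a median of 4.17 with MP-HX and 4.03 with vehicle, and 8 fibroblast and endothelium markers one of 3.73 with MP-HX and 3.85 with vehicle. Bile duct and progenitor markers, many of which hepatoma cells express, had a median of 8.22 with MP-HX and 8.40 with vehicle over 10 genes. The 7 blood cell markers had one of 5.29 with MP-HX and 5.45 with vehicle. These medians hide bright members. LYZ of the blood cell list was at 11.84 with MP-HX and 12.18 with vehicle, and CD68 at 10.81 with MP-HX and 9.75 with vehicle (1.06). VIL1 of the colon list was at 9.25 with MP-HX and 9.87 with vehicle. Above the array median on a HepG2 array were 6 of 10 colon, 3 of 8 fibroblast and endothelium and 7 of 7 blood cell markers. As the RNA is from whole cultures, fewer cells of a kind and less RNA per cell cannot be told apart.

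Hepatocytes make most of the proteins of blood plasma, take up and store metals, run gluconeogenesis and the urea cycle, and conjugate foreign compounds. When they meet a toxic compound, several stress programmes can start in parallel. Metal or oxidant stress frees zinc, which activates the factor MTF1 at metal response elements of the metallothionein genes. Misfolded proteins activate HSF1 at heat shock elements, oxidants stabilise NRF2, and shortage of amino acids or stress of the endoplasmic reticulum raises translation of ATF4, which acts on CHOP (DDIT3) and on genes of amino acid supply. MAP kinases induce immediate early genes such as EGR1 and the AP-1 subunits, together with the phosphatases that switch the kinases off. HepG2 cells also divide, which normal adult hepatocytes seldom do, and genes of replication and mitosis are switched on together through E2F, CCAAT and CHR elements.

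The promoters of genes that stood out in the comparison are printed from the RefSeq tables (build GRCh38.p14), from 250 bases before to 50 bases after the annotated start, as 1 unbroken run from 5′ to 3′ on the gene's strand. Capitals mark motifs that were searched for on both strands. The metallothionein genes lie side by side on chromosome 16, and the letters marked in their promoters are the core TGCNCNC of the metal response element.
MT1B promoter, chr16:56651636-56651935, plus strand: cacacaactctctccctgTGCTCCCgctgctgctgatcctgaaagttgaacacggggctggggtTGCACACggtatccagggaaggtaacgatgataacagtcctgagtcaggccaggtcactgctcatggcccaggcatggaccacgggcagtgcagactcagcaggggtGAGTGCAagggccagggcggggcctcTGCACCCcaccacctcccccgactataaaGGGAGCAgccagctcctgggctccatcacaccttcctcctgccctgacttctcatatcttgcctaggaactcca
MT1H promoter, chr16:56669564-56669863, plus strand: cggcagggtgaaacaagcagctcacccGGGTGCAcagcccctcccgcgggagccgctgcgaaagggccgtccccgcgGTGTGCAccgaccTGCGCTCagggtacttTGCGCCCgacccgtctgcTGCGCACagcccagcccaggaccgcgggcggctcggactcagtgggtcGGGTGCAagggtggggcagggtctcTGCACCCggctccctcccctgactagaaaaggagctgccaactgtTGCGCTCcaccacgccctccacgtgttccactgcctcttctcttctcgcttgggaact
MT1X promoter, chr16:56682220-56682519, plus strand: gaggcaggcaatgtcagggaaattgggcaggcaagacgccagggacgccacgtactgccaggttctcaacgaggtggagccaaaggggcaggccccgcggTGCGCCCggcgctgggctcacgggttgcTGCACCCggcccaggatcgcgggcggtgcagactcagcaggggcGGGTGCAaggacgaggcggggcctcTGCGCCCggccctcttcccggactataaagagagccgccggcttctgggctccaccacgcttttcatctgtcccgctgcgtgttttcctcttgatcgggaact
MT2A promoter, chr16:56608334-56608633, plus strand: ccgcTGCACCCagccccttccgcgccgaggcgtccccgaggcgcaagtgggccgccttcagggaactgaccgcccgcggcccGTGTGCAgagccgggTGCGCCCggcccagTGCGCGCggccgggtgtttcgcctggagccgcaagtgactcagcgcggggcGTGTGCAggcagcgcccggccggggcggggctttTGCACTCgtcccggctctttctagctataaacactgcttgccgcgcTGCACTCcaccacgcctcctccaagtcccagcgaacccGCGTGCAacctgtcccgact
The core occurred 5 times in the MT1B promoter, 8 times in that of MT1H, 4 times in that of MT1X and 8 times in that of MT2A. At least 1 core was present in 55.9% of all 35116 promoters of the table, and at least 4 cores in 2.94% of them. The share with at least 1 core was 63.7% for the higher genes counted below, 64.5% for the lower genes and 77.3% for the lower genes of cell division. A match describes the letters of a window, not a bound site.
The next promoter is that of HSPA1A, an inducible HSP70 chaperone, with the heat shock element in its GAANNTTC form in capitals. That form was found in 6.77% of all promoters, and the form TTCNNGAA, found in 7.74%, was searched for as well and is not in this window.
HSPA1A promoter, chr6:31815293-31815592, plus strand: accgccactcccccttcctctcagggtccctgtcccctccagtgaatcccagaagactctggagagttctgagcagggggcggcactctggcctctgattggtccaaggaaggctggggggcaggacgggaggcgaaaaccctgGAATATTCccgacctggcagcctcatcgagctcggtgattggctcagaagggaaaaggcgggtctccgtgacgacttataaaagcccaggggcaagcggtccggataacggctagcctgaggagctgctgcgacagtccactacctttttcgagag
DUSP1 encodes a MAP kinase phosphatase, and its window holds 1 cAMP response element, TGACGTCA, which was found in 1.85% of all promoters. Its share was 3.52% for the higher genes, 3.03% for the lower genes and 7.95% for the lower genes of cell division. IL11 encodes a cytokine of the interleukin 6 family, and its window holds 1 AP-1 site, TGAGTCA, found in 4.95% of all promoters, in 6.84% of those of the higher genes counted below and in 2.12% of those of the lower genes.
DUSP1 promoter, chr5:172771146-172771445, minus strand: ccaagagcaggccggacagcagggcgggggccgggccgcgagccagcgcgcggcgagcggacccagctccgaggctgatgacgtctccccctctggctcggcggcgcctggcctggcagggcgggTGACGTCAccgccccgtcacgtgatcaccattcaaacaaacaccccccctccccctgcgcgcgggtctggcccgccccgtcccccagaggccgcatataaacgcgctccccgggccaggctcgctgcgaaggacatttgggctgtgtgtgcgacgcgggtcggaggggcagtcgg
IL11 promoter, chr19:55370414-55370713, minus strand: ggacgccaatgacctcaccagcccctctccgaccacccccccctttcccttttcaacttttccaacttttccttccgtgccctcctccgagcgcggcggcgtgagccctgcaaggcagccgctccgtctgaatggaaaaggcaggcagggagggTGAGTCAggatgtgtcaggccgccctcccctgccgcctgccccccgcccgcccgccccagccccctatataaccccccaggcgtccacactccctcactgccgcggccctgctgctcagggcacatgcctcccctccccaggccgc
KIF18A encodes a kinesin of chromosome alignment and stands here for the genes of cell division. A CCAAT box and, downstream of it, a CHR element (TTTGAA) are in capitals. The CHR letters were found in 15.2% of all promoters and in 31.8% of those of the cell division genes that were at least 2-fold lower with MP-HX, and CCAAT in 34.6% and 58.0% of them. For lower genes outside the cell division lists the shares were 23.1% for CHR and 43.8% for CCAAT, and for the higher genes 7.23% and 32.0%.
KIF18A promoter, chr11:28108107-28108406, minus strand: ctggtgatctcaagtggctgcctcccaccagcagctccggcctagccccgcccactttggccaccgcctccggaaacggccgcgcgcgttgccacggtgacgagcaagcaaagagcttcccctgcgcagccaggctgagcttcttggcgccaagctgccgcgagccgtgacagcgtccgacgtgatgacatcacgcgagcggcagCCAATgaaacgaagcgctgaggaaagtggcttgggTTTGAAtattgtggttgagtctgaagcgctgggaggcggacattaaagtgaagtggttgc

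With MP-HX, 504 of the 16098 clusters were at least 2-fold higher (3.13%) and 347 were at least 2-fold lower (2.16%). Counted as genes, 473 of 14884 were higher (3.18%) and 336 lower (2.26%), and these shares are the background for every count below. The differences reached further upward than downward. At least 4-fold higher were 67 genes and at least 4-fold lower 21, and 16 genes were at least 8-fold higher while 0 were at least 8-fold lower. The higher genes had a median log2 signal of 7.70 with MP-HX and 6.13 with vehicle, and the lower genes one of 6.22 with MP-HX and 7.58 with vehicle. These medians all lay above the array medians. When 64 was added to each linear signal, however, only 165 of the 473 higher genes and 104 of the 336 lower genes stayed at least 2-fold apart. Of the 473 higher genes, 47 had a dim vehicle signal, and 443 stayed at least 2-fold higher when every signal under the array median was raised to it. Of the 336 lower genes, 33 were dim with MP-HX, and 310 stayed at least 2-fold lower. Within 0.1 on the log2 scale just inside the threshold lay 108 of the higher and 75 of the lower genes, and within 0.1 just outside it lay 131 genes above vehicle and 105 below. Protein-coding genes made up 417 of the higher and 302 of the lower genes.

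**Figure D1:**
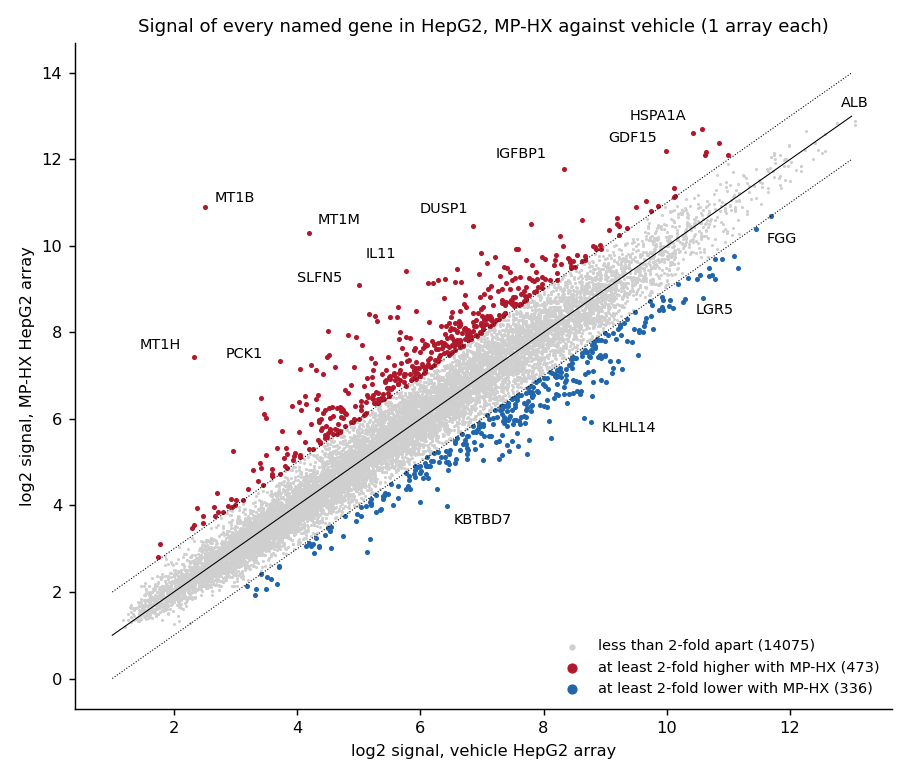
Each point is 1 of 14884 genes, with the log2 signal of the vehicle HepG2 array on the x axis and that of the MP-HX HepG2 array on the y axis. The solid line marks equal signal and the dotted lines a 2-fold difference. The 473 red genes lie above the upper line and the 336 blue genes below the lower line, and MT1B, MT1M and MT1H lie furthest above.

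The metallothioneins, small cysteine-rich proteins that bind zinc and copper and take up oxidants, lay furthest above vehicle. Of 11 measured members, 7 were at least 2-fold higher and 0 lower, and the median log2 fold change of the family was 1.48, against 0 over all 14884 genes. MT1B had a log2 signal of 10.89 with MP-HX and 2.51 with vehicle, a log2 fold change of 8.38. MT1M was at 10.30 with MP-HX and 4.19 with vehicle (6.11), and MT1H at 7.44 with MP-HX and 2.32 with vehicle (5.12). The vehicle signals of MT1B and MT1H were dim, so their folds were also taken against the array median, which gave at least 116-fold for MT1B and at least 10.6-fold for MT1H. A second set of members was already bright without the extract. MT1F was at 12.38 with MP-HX and 10.84 with vehicle (1.54), MT1G at 12.17 with MP-HX and 10.63 with vehicle (1.54), and MT1X at 12.10 with MP-HX and 10.62 with vehicle (1.48). MT1E stood lower on the scale, at 7.18 with MP-HX and 5.97 with vehicle (1.21). MT2A, the most widely expressed member in human tissues, was at 10.39 with MP-HX and 9.95 with vehicle (0.44), under 2-fold. The remaining members differed little: MT1L, a pseudogene, had 0.57 with both signals dim, MT3, the brain form, had -0.05, and MT4, the form of stratified epithelia, had -0.27. MT4 is thus a member whose promoter holds 6 cores and whose signal was not 2-fold apart. MTF1, the factor that binds the metal response element, was at 9.04 with MP-HX and 8.53 with vehicle (0.51). Metallothionein genes are close in sequence, and how far their probes share signal was not tested.

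The inducible heat shock proteins formed a second group of bright genes that were higher. These chaperones hold unfolded proteins, and 5 of 14 measured members of the list were at least 2-fold higher and 0 lower, with a median of 0.74. HSPA1A was at 12.71 with MP-HX and 10.57 with vehicle (2.14), and HSPA1B at 12.62 with MP-HX and 10.43 with vehicle (2.19). The 2 genes are near-identical copies, so that their signals cannot be told apart, and another cluster of HSPA1B had 1.58. HSPA6, a strictly stress-inducible HSP70, was at 6.46 with MP-HX and 4.31 with vehicle (2.15). The small heat shock protein HSPB1 was at 11.04 with MP-HX and 9.67 with vehicle (1.37), and CHORDC1, a co-chaperone of HSP90, lay at the threshold with 6.77 with MP-HX and 5.77 with vehicle (1.00). BAG3, which couples HSP70 to autophagy, had 0.90, HSPH1, a nucleotide exchange factor of HSP70, 0.75, and the transcription factor HSF1 0.72. Other members lay at or below vehicle: HSPD1, the mitochondrial chaperonin, had -0.01, HSPA4L -0.36 and HSPA4 -0.40.

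**Figure D2:**
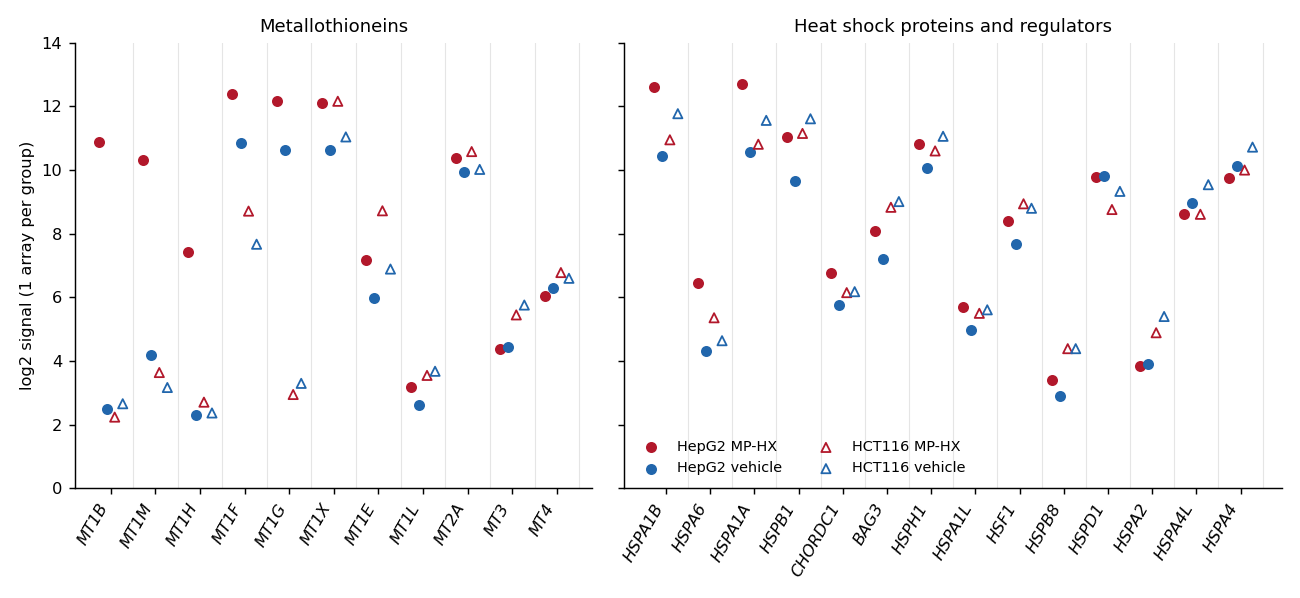
Log2 signal of 11 metallothioneins (left panel) and 14 heat shock genes (right panel), ordered by the log2 fold change in HepG2, with 1 point for each of the 4 arrays. MT1B, MT1M and MT1H are at 7.44 or more on the HepG2 MP-HX array and at 4.19 or less on the other arrays, and HSPA1A, HSPA1B and HSPB1 are higher with MP-HX in HepG2 and lower with MP-HX in HCT116.

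Targets of NRF2, the regulator of antioxidant enzymes, were higher in 7 of 15 measured members and lower in 0, with a median of 0.63. SRXN1, which repairs oxidised peroxiredoxins, was at 10.59 with MP-HX and 8.62 with vehicle (1.97), and HMOX1, which breaks down haem, at 10.24 with MP-HX and 8.27 with vehicle (1.97). OSGIN1 had 1.70, the autophagy receptor SQSTM1 1.40, TXNRD1, thioredoxin reductase, 1.35, the NRF2 partner MAFG 1.35 and the biliverdin reductase BLVRB 1.26. Enzymes of the pentose phosphate pathway in the list stayed under 2-fold, with TKT at 0.63, PGD at 0.55 and TALDO1 at 0.24. So did TXN (-0.18), PRDX1 (-0.26) and CBR1 (-0.49).

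Targets of ATF4 and CHOP had one of the highest medians of the lists, 1.43, with 10 of 18 measured members at least 2-fold higher and 0 lower. ATF3, a stress-induced repressor, was at 7.25 with MP-HX and 4.22 with vehicle (3.03). SESN2, which restrains the growth kinase mTORC1, was at 9.60 with MP-HX and 7.09 with vehicle (2.51), and DDIT3, the pro-apoptotic factor CHOP, at 6.29 with MP-HX and 3.91, a dim signal, with vehicle (2.38). GDF15, a stress hormone that acts on appetite centres, reached 12.19 with MP-HX, against 9.98 with vehicle (2.21). DDIT4, another brake on mTORC1, had 1.93, ASNS, asparagine synthetase, 1.90, the pseudokinase TRIB3 1.73, the lipoprotein receptor VLDLR 1.72, the secreted glycoprotein STC2 1.45 and KLHL24 1.41. ATF4 itself, which is controlled largely at translation, was at 10.46 with MP-HX and 9.91 with vehicle (0.55). The enzymes of serine synthesis did not share the pattern, with PHGDH at 0.30, PSAT1 at -0.35 and PSPH at -0.88. FGF21, a hepatokine and a known ATF4 target, was dim at 3.72 with both MP-HX and vehicle. When 64 was added to each linear signal, this list had a median of 0.81 and 8 members at least 2-fold higher.
Genes of amino acid supply differed less. All but 1 of 12 measured aminoacyl-tRNA synthetases, the enzymes that load amino acids onto tRNA, lay above vehicle, with a median of 0.76, and only SARS1 was at least 2-fold higher, at 9.25 with MP-HX and 7.76 with vehicle (1.49). IARS1 was the exception at -0.20. CTH, the cystathionine lyase that makes cysteine, was at 9.17 with MP-HX and 6.57 with vehicle (2.60), and NAGS, which makes the activator of the urea cycle, at 7.76 with MP-HX and 6.29 with vehicle (1.47). They were the 2 of 13 measured genes of the urea cycle and amino acid breakdown that were at least 2-fold higher, and the urea cycle enzymes ASS1 (0.30), ASL (0.08) and OTC (-0.08) were not.
Among regulators of the unfolded protein response, 4 of 15 were at least 2-fold higher and 0 lower. ERN1, the sensor IRE1, was at 8.58 with MP-HX and 5.63 with vehicle (2.95). SELENOS had 1.25, CREB3 1.10 and the sensor ATF6 1.04, and the sensor kinase EIF2AK3 (PERK) had 0.67. After the same addition of 64, ERN1 alone was at least 2-fold higher. The IRE1 substrate XBP1 was at 9.27 with MP-HX and 9.45 with vehicle (-0.18). The chaperones of the endoplasmic reticulum differed little, with 1 of 8 at least 2-fold higher: the oxidase ERO1B (1.07), whereas HYOU1 had 0.55, CALR -0.09, CANX -0.12 and ERO1A -0.69.

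Signalling genes of the MAP kinase response made up the next group. All 12 measured AP-1 subunits and partners lay above vehicle, and 8 were at least 2-fold higher, with a median of 1.30. Besides ATF3 these were JUNB, at 9.16 with MP-HX and 6.66 with vehicle (2.50), JUN, at 9.92 with MP-HX and 7.59 with vehicle (2.33), FOSL1, at 9.51 with MP-HX and 7.36 with vehicle (2.15), FOSL2 (1.59), MAFG (1.35), JUND (1.25) and FOSB (1.12, with -0.34 in a dimmer second cluster). FOS, the subunit that is induced and lost within hours of a stimulus, was at 5.93 with MP-HX and 5.30 with vehicle (0.63). A dimmer second cluster of FOS had -0.09. ATF2 had 0.01. Of 20 immediate early genes, 12 were at least 2-fold higher and 0 lower, with a median of 1.05. EGR1, a zinc finger factor, was at 9.24 with MP-HX and 6.40 with vehicle (2.84), although a dimmer second cluster of it had 0.55. The kinase SIK1 was at 9.35 with MP-HX and 6.96 with vehicle (2.39) and PLK3, a stress-responsive polo-like kinase, at 8.25 with MP-HX and 6.14 with vehicle (2.11). MYC lay at the threshold, at 9.94 with MP-HX and 8.94 with vehicle (1.00), and EGR3 had -0.17. When 64 was added to each linear signal, 5 of the 20 immediate early genes were at least 2-fold higher.
The feedback phosphatases split by member. DUSP1, which acts mainly on p38 and JNK in the nucleus, was at 10.47 with MP-HX and 6.86 with vehicle (3.61). DUSP5 was at 8.38 with MP-HX and 5.26 with vehicle (3.12; a second, dimmer cluster had 0.08), DUSP8 at 8.35 with MP-HX and 5.62 with vehicle (2.73), and DUSP10 at 6.98 with MP-HX and 5.21 with vehicle (1.77). DUSP6 and DUSP7, which act on ERK in the cytoplasm, had -0.29 and -0.52, and SPRY2 and SPRY4, inhibitors of receptor tyrosine kinase signalling, 0.06 and 0.34. Thus 4 of 12 were at least 2-fold higher.

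Several secreted factors were far above vehicle while most of their families were not. IL11 was at 9.42 with MP-HX and 5.76 with vehicle (3.66), and LIF, a cytokine that signals through the same gp130 subunit, at 8.42 with MP-HX and 5.16 with vehicle (3.26). CXCL8, the neutrophil chemokine interleukin 8, was at 6.11 with MP-HX and 3.46, a dim signal, with vehicle (2.65), or 2.08 against the array median. IL32 had 1.40. With GDF15 these were 5 of 21 cytokines and chemokines at least 2-fold higher and 0 lower, and among those under 2-fold were CCL20 (0.28), CXCL2 (0.22) and TNF (0.57). EREG, an EGF receptor ligand, was at 8.03 with MP-HX and 4.50 with vehicle (3.53), and HBEGF, another one, at 6.05 with MP-HX and 4.71 with vehicle (1.34). They were the 2 of 12 members of the EGF family that were at least 2-fold higher, and EGFR had 0.91. FGF2 was at 7.16 with MP-HX and 4.05 with vehicle (3.11). BMP6, the ligand through which the liver senses iron, was at 7.48 with MP-HX and 4.51 with vehicle (2.97), whereas BMP4 was lower, at 9.24 with MP-HX and 10.79 with vehicle (-1.55). HAMP, the iron hormone hepcidin that BMP6 controls, was at 11.63 with MP-HX and 10.81 with vehicle (0.82). IGFBP1, a liver protein that binds insulin-like growth factors, was at 11.79 with MP-HX and 8.33 with vehicle (3.46).
PCK1, the cytosolic enzyme that commits carbon to gluconeogenesis, was at 7.33 with MP-HX and 3.72, a dim signal, with vehicle (3.61). Its mitochondrial form PCK2 had 0.80, and the glycolytic enzymes of the list were all under 2-fold. GPAT3, an enzyme of triglyceride synthesis, was at 9.15 with MP-HX and 6.12 with vehicle (3.03), and PLIN2, the coat of lipid droplets, at 7.17 with MP-HX and 5.98 with vehicle (1.19). Genes of cholesterol synthesis differed by less than 2-fold in all 14 cases, with a median of -0.19.

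NF-kB genes and interferon genes gave fewer calls. Of 15 NF-kB subunits and feedback genes, 4 were at least 2-fold higher: the kinase MAP3K14 (1.37), the subunit NFKB2 (1.26), TNIP1 (1.14) and the deubiquitinase CYLD (1.04). When 64 was added to each linear signal, 0 of these 4 were. Of 25 interferon response genes, only SLFN5 was, and it was the fourth gene of all, at 9.09 with MP-HX and 5.00 with vehicle (4.09). The other Schlafen genes measured were dim, with SLFN11 at -0.44, SLFN12 at -0.06 and SLFN13 at 0.22, and the median of the list was 0.07. SNAI2 and SNAI1, repressors of epithelial genes, were at 8.27 with MP-HX and 5.29 with vehicle (2.98) and at 6.95 with MP-HX and 5.62 with vehicle (1.33). Their partners in that list did not follow, with ZEB1 at 0.76, TWIST1 dim at -0.11 and the fibronectin gene FN1 at 0.03.
Autophagy genes were above vehicle in 22 of 25 cases, 5 of them at least 2-fold: GABARAPL1, at 7.21 with MP-HX and 4.92 with vehicle (2.29), the receptors OPTN (1.49) and SQSTM1 (1.40), MAP1LC3B (1.47) and the starting kinase ULK1 (1.12). ATG2A, ATG9A and RB1CC1 lay just under the threshold at 0.99 each. Of 14 targets of p53, 6 were at least 2-fold higher and 0 lower. They were SFN (14-3-3 sigma), at 10.51 with MP-HX and 7.79 with vehicle (2.72), SESN2, PLK3, the BH3-only proteins PMAIP1 (1.63) and BBC3 (1.44), and PLK2 (1.22). Other targets were nearer to vehicle, with RRM2B at 0.31, AEN at 0.32, BAX at 0.03, CCNG1 at -0.04 and SESN1 at -0.14. BAK1, an effector of mitochondrial cell death, was at 7.84 with MP-HX and 6.73 with vehicle (1.11), and 0 of 11 anti-apoptotic genes were 2-fold apart.

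**Figure D3:**
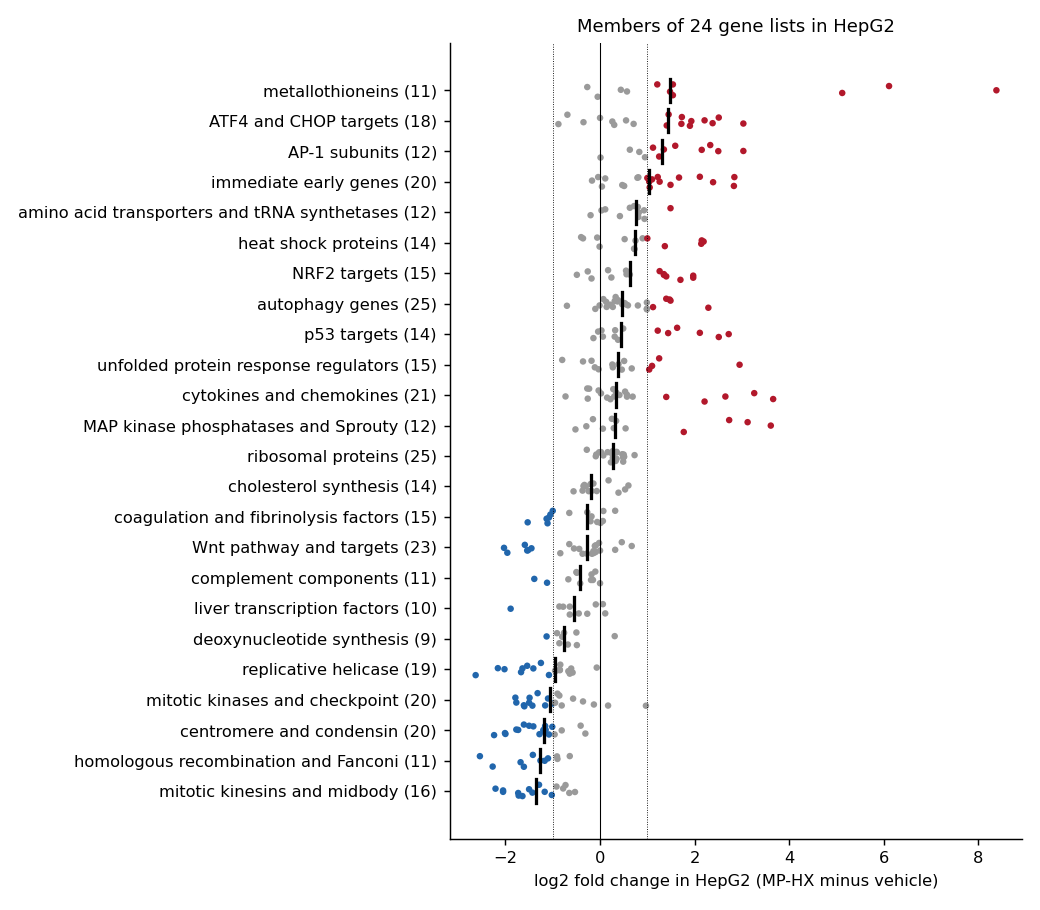
Log2 fold change in HepG2 (x axis) of each measured member of 24 gene lists (y axis, number of members in brackets). Red points are at least 2-fold higher and blue points at least 2-fold lower with MP-HX, dotted lines mark 2-fold, and black bars are list medians, which run between 1.48 for metallothioneins and -1.36 for mitotic kinesins.

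Cell division was the theme with the most lower genes among the lists, although 229 of the 336 lower genes, like 382 of the 473 higher ones, belong to no list. Over the lists of replication, repair and mitosis, 80 of 152 distinct genes were at least 2-fold lower with MP-HX and 0 were higher, with a median of -1.04. The lists were drawn up with earlier results of these arrays known, so that their direction is not independent evidence. When 64 was added to each linear signal, 41 of the 152 were at least 2-fold lower. Counted so, 2 of 7 replication fork genes, 2 of 11 genes of homologous recombination and 8 of 20 centromere and condensin genes were at least 2-fold lower.
At the origin of replication, TICRR, which with TOPBP1 loads the helicase activator CDC45, was at 6.02 with MP-HX and 8.65 with vehicle (-2.63). GINS1, a subunit of the active helicase, was at 6.86 with MP-HX and 9.02 with vehicle (-2.16), and MCM10, which starts it, at 6.57 with MP-HX and 8.59 with vehicle (-2.02). All 19 measured genes of this list lay below vehicle (9 were at least 2-fold lower), and they did so by unequal amounts: MCM6 had -1.67 and MCM3 -1.54, but MCM2 -0.67, MCM5 -0.64, MCM7 -0.61 and the licensing factor CDT1 -0.07. The study's RT-qPCR on HepG2 ordered some genes differently. MCM2 was reduced there by a larger fold than CCNA2 and RRM2, though by a smaller one than MCM10. The array gave MCM2 the smallest fold of these genes, and why the methods differ was not tested. At the fork, 6 of 7 genes were at least 2-fold lower, among them WDHD1 (-1.63), CLSPN (-1.57) and the sliding clamp PCNA, at 9.31 with MP-HX and 10.69 with vehicle (-1.38). A second, dim cluster of CLSPN had 0.13.
Deoxynucleotide synthesis held fewer calls, with 1 of 9 genes at least 2-fold lower, RRM2 (-1.13), while RRM2B, its p53-dependent relative, had 0.31. Repair by homologous recombination was lower in 8 of 11 genes. The nuclease EXO1 was at 5.19 with MP-HX and 7.73 with vehicle (-2.54), and the helicase BRIP1 at 6.52 with MP-HX and 8.79 with vehicle (-2.27). ESCO2 and DSCC1, which fasten sister chromatids together during replication, had -2.20 and -2.15.
In mitosis, 11 of 16 kinesins and midbody genes, 16 of 20 centromere and condensin genes and 11 of 20 kinases and checkpoint genes were at least 2-fold lower. KIF18A, whose promoter is printed above, was at 5.07 with MP-HX and 7.28 with vehicle (-2.21), and KIF11, the motor that separates the spindle poles, at 7.49 with MP-HX and 9.54 with vehicle (-2.05). CENPI was at 5.52 with MP-HX and 7.76 with vehicle (-2.24), NDC80, which ties kinetochores to microtubules, at 5.40 with MP-HX and 7.40 with vehicle (-2.0), and SKA3 at 6.37 with MP-HX and 8.38 with vehicle (-2.01). PLK4, the kinase of centriole copying, had -1.79, whereas PLK1 was at 10.28 with MP-HX and 11.18 with vehicle (-0.90), under 2-fold. In the study's RT-qPCR on HepG2, PLK1 too was reduced by a larger fold than CCNA2 and RRM2. Its small array value was thus not matched by that method. FZR1, an activator of the anaphase-promoting complex, lay above vehicle at 0.97.
Of 18 cyclins, CDKs and CDC25 phosphatases, 7 were at least 2-fold lower: CDK1 (-1.87), CCNB1 (-1.85), CDC25A (-1.48), CCNA2 (-1.42), CCNE2 (-1.17), CCNB2 (-1.14) and CDK6 (-1.06). CCND3 (-0.04) and CDK4 (-0.03) were near vehicle, and WEE1, which inhibits CDK1, had 0.66. E2F8, a repressor of E2F target genes and itself a target, was at 5.56 with MP-HX and 8.12 with vehicle (-2.56), and the pocket protein RBL1 had -1.65, while E2F3 had 0.02 and E2F7 0.32. Of 17 listed CDK inhibitors and growth arrest genes, only 5 were measured. Among these, 2 were at least 2-fold higher and 1 lower, with a median of 0.28. CDKN1A, CDKN2B and GADD45A, which are in the study's RT-qPCR panel, had no cluster with 1 gene symbol and are not described. The study reported each of them as upregulated in HepG2. RGCC was at 6.20 with MP-HX and 4.07 with vehicle (2.13), and MXD1, which opposes MYC, at 9.50 with MP-HX and 7.40 with vehicle (2.10). The lower gene was CDKN3, at 7.56 with MP-HX and 8.78 with vehicle (-1.22).

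Genes of liver function were the second group that was lower. Of 60 distinct genes of plasma protein output, 11 were at least 2-fold lower and 0 higher, with a median of -0.25, so that most members were not 2-fold apart. Several members with very bright signals differed little. ALB had -0.18, alpha-fetoprotein (AFP) -0.36, transferrin (TF) -0.34, APOB -0.37, C3 -0.10, and APOA2, at 12.84 with MP-HX and 12.76 with vehicle, 0.08. Clotting factors held the most calls, 6 of 15. CPB2, which slows the dissolution of clots, was at 8.02 with MP-HX and 9.55 with vehicle (-1.53). Protein S (PROS1) was at 7.94 with MP-HX and 9.05 with vehicle (-1.11). The kininogen KNG1 was at 6.44 with MP-HX and 7.57 with vehicle (-1.13), although a dimmer second cluster of it had -0.54, under 2-fold. F11 had -1.08, and of the 3 fibrinogen chains FGG had -1.05, FGA -1.0 and FGB -0.65. Prothrombin (F2) was level, at 9.75 with MP-HX and 9.74 with vehicle. Of 11 complement genes, 2 were at least 2-fold lower, the inhibitor CFI, at 8.08 with MP-HX and 9.47 with vehicle (-1.39), and C5, at 8.64 with MP-HX and 9.76 with vehicle (-1.12). Haptoglobin (HP), which binds free haemoglobin, had -1.34, the copper carrier ceruloplasmin (CP) -1.23 and MTTP, which loads lipid onto lipoproteins, -1.10. When 64 was added to each linear signal, 0 of 13 apolipoprotein genes and 2 of 15 clotting genes were at least 2-fold lower.

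**Figure D4:**
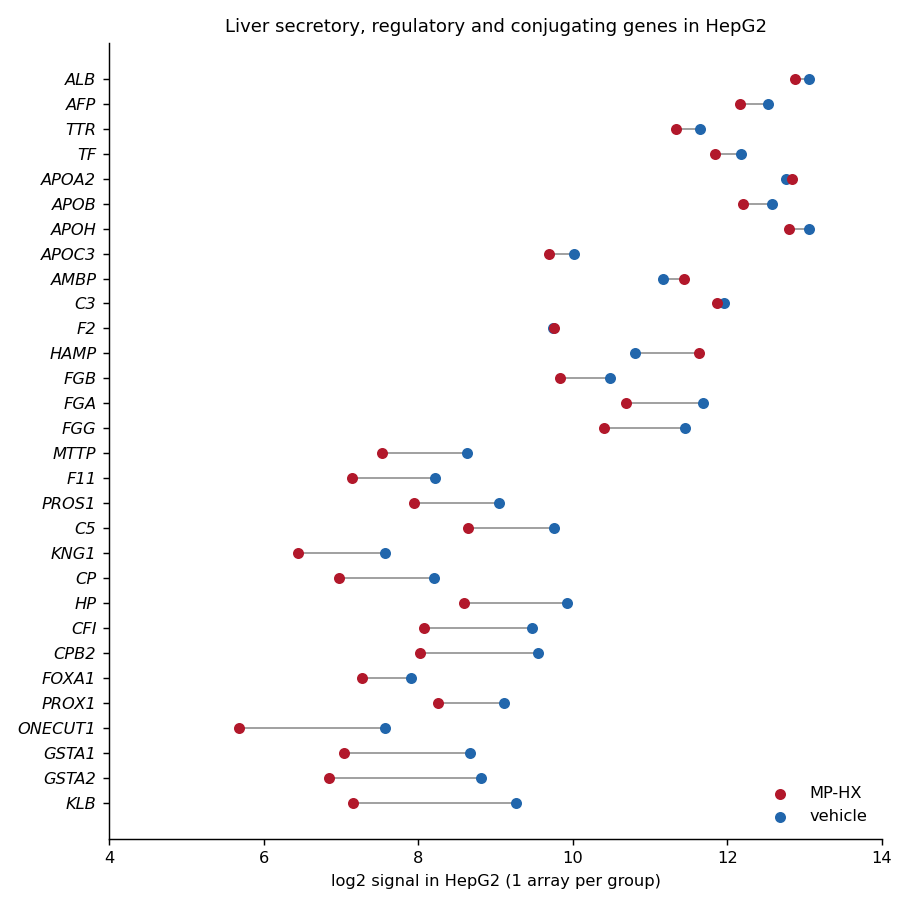
Log2 signal in HepG2 (x axis) with MP-HX (red) and with vehicle (blue) for 30 genes of liver secretion, regulation and conjugation, joined by a line for each gene. ALB, APOA2, C3 and F2 differ little, while HP, CFI, CPB2, ONECUT1, GSTA1, GSTA2 and KLB are more than 2-fold lower with MP-HX.

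Of 10 liver transcription factors, 8 lay below vehicle and 1 was at least 2-fold lower. ONECUT1 (HNF6), a factor of hepatocyte and bile duct development, was at 5.68 with MP-HX and 7.57 with vehicle (-1.89). PROX1 had -0.86, GATA4 -0.78, FOXA1 -0.64 and GATA6 -0.64, whereas FOXA2 had 0.11 and PPARA 0.06. LINC00261, a long noncoding RNA whose gene neighbours FOXA2, was at 4.08 with MP-HX and 6.00 with vehicle (-1.92). KLB, the coreceptor through which liver cells respond to FGF19 and FGF21, was at 7.15 with MP-HX and 9.27 with vehicle (-2.12), while its partner FGFR4 had 0.04.
Of 18 conjugating enzymes, 3 were at least 2-fold lower. The glutathione transferases GSTA2, at 6.85 with MP-HX and 8.81 with vehicle (-1.96), and GSTA1, at 7.04 with MP-HX and 8.67 with vehicle (-1.63), are close copies whose probes may share signal, and NAT2 (-1.12) was dim on both arrays. MGST1, another enzyme that uses glutathione, had 0.43. The lists of xenobiotic P450 enzymes, drug-transporting ABC proteins, proteasome subunits and replication-dependent histones held 0 genes with a named cluster and are not analysed here. TTPA, the liver protein that retains vitamin E, was at 4.37 with MP-HX and 6.27 with vehicle (-1.90).
Wnt genes were lower in 6 of 23 cases and higher in 0. FZD4, a Wnt receptor, was at 6.90 with MP-HX and 8.93 with vehicle (-2.03), and RNF43, which removes such receptors from the surface, at 7.17 with MP-HX and 9.13 with vehicle (-1.96). DKK4 had -1.59, LGR4 -1.54, LGR5 -1.52 and DKK1 -1.45. The list was uneven: AXIN2 (0.00), NKD1 (-0.09) and NOTUM (-0.09), targets of the same pathway, were level between MP-HX and vehicle. The gene furthest below vehicle of all was KLHL14, at 5.94 with MP-HX and 8.77 with vehicle (-2.83). KBTBD7, an adaptor of a ubiquitin ligase, followed E2F8 and EXO1 at 3.98 with MP-HX and 6.43 with vehicle (-2.45), and the homeobox gene HOXD1 was at 5.25 with MP-HX and 7.44 with vehicle (-2.19).
Ribosomal proteins and reference genes held 0 genes 2-fold apart. The 25 ribosomal proteins had a median of 0.28 and 21 of them lay above vehicle, and of 7 reference genes TBP had 0.00, B2M -0.05, GAPDH -0.23 and PPIA -0.81.

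Among noncoding genes, 15 of 1072 microRNA genes were at least 2-fold higher (1.40%) and 19 lower (1.77%), and 18 of 1398 long noncoding RNA genes were higher (1.29%) and 9 lower (0.64%), shares below those of all genes. Of these, 413 microRNA genes and 674 long noncoding genes were above the array median on a HepG2 array, against 10919 of all 14884 genes. Whether the lower shares go with dimmer signals was not tested. The array reads the region of the gene, so that a precursor or a host transcript may give the signal of a mature microRNA. MIR3189, which lies inside the GDF15 gene on chromosome 19, was at 9.14 with MP-HX and 6.20 with vehicle (2.94), beside 2.21 for GDF15. MIR21, a microRNA abundant in tumours, was at 7.88 with MP-HX and 5.83 with vehicle (2.05). MIR574 was at 8.38 with MP-HX and 9.75 with vehicle (-1.37), and MIR891A at 5.46 with MP-HX and 7.23 with vehicle (-1.77). The mature sequences are given from RefSeq to show that they have no seed in common. The seed, bases 2 to 8, is in capitals.
hsa-miR-21-5p: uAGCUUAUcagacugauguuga
hsa-miR-3189-5p: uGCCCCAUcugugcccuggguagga
hsa-miR-3189-3p: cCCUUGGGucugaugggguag
hsa-miR-574-5p: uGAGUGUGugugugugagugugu
hsa-miR-574-3p: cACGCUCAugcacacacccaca
hsa-miR-891a-5p: uGCAACGAaccugagccacuga
Of the long noncoding genes, LOC100507412 was at 9.47 with MP-HX and 6.60 with vehicle (2.87), and EGFR-AS1, antisense to the receptor gene EGFR, at 6.26 with MP-HX and 4.51 with vehicle (1.75), beside 0.91 for EGFR.

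HCT116 cells gave a second set of values for the same genes, at another dose and on arrays of their own, so that line and dose cannot be told apart. Of the 473 genes higher in HepG2, 138 were at least 2-fold higher in HCT116 too, which is 29.2% of the HepG2 genes and 38.2% of the 361 genes higher in HCT116. Of the 336 lower genes, 148 were shared, 44.0% of the HepG2 genes and 33.3% of the 445 genes lower in HCT116. The HCT116 backgrounds were 2.43% higher and 2.99% lower genes. Values for HepG2 and HCT116 side by side showed which groups were shared. Over the cell division lists, 80 of 152 genes were at least 2-fold lower in HepG2 and 112 in HCT116, with medians of -1.04 in HepG2 and -1.39 in HCT116. Targets of ATF4 and CHOP had medians of 1.43 in HepG2 and 1.11 in HCT116, NRF2 targets 0.63 in HepG2 and 1.14 in HCT116, and the autophagy genes 0.47 in HepG2 and 0.58 in HCT116.
Other groups differed in value, although none of these differences could be tested. Heat shock proteins had a median of 0.74 in HepG2 and -0.46 in HCT116, and 5 of 14 were at least 2-fold higher in HepG2 against 0 in HCT116. In HCT116, HSPA1B was at 10.95 with MP-HX and 11.77 with vehicle (-0.82), and HSPA1A had -0.75. On the vehicle arrays HSPA1B was thus brighter in HCT116 (11.77) than in HepG2 (10.43). Metallothioneins at least 2-fold higher in HCT116 were MT1E (1.83), MT1X (1.12) and MT1F (1.04), while MT1B, MT1M and MT1H were dim there on both arrays. MT1G, bright in HepG2, was dim in HCT116 as well. Plasma protein genes, 11 of 60 lower in HepG2, were lower in 0 of 60 in HCT116. However, 28 of the 60 were dim on both HCT116 arrays and could hardly be 2-fold lower. Of the 11 genes lower in HepG2, all but PROS1 were among these dim genes. PROS1 had -1.11 in HepG2 and -0.44 in HCT116. The count of 0 in HCT116 thus carries little comparison for the genes that were lower in HepG2. ONECUT1 (-1.89 in HepG2) and KLB (-2.12 in HepG2) were dim on both HCT116 arrays, so that their HCT116 values, -0.20 for ONECUT1 and 0.17 for KLB, carry no comparison.
Secreted factors named above, picked with their values known, had unequal values in HepG2 and HCT116. EREG had 3.53 in HepG2 and -0.03 in HCT116, IGFBP1 3.46 in HepG2 and -0.12 in HCT116, LIF 3.26 in HepG2 and 0.27 in HCT116, BMP6 2.97 in HepG2 and 0.12 in HCT116, and IL11 3.66 in HepG2 and 0.61 in HCT116. The IGFBP1 signals in HCT116, 4.31 with MP-HX and 4.43 with vehicle, lay close to the array medians. Its HCT116 value thus carries little comparison. GDF15 had 2.21 in HepG2 and 1.48 in HCT116, and HBEGF 1.34 in HepG2 and 1.57 in HCT116. CXCL8 had 2.65 in HepG2 and 6.20 in HCT116. Outside the secreted factors, HMOX1 had 1.97 in HepG2 and 3.51 in HCT116. In HCT116, EREG was at 10.88 with MP-HX and 10.91 with vehicle, so that its HepG2 signal with MP-HX, 8.03, lay below both.

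**Figure D5:**
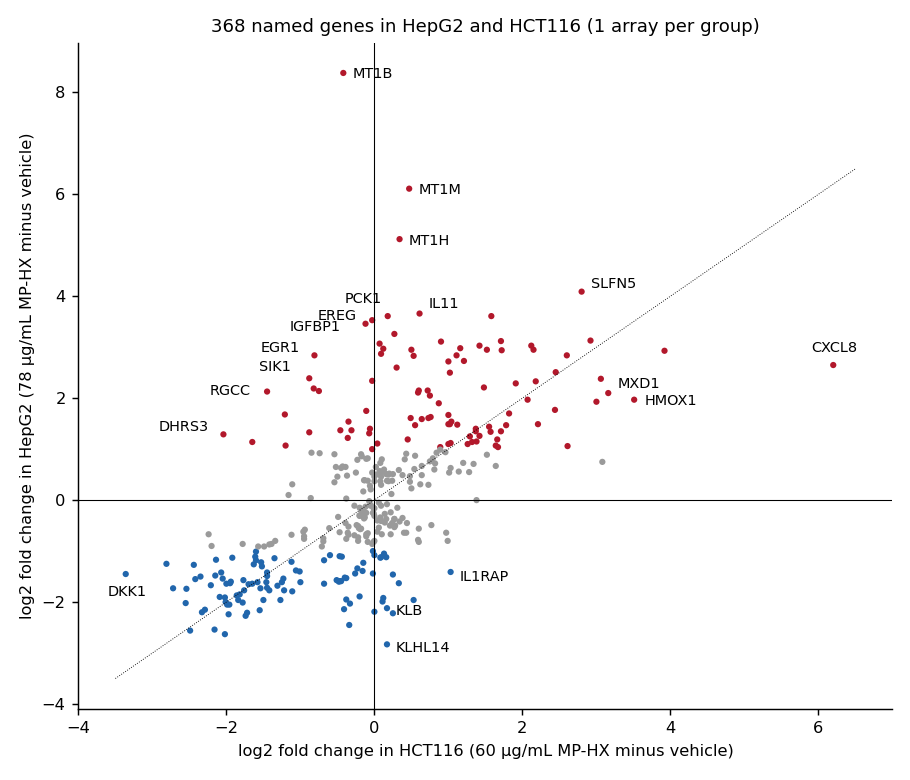
Log2 fold change of 368 named genes in HepG2 (y axis) and in HCT116 (x axis), 1 array per group and different doses. Red genes are at least 2-fold higher and blue genes at least 2-fold lower with MP-HX in HepG2, and the dotted line marks equal values. MT1B, MT1M and MT1H lie near 0 on the HCT116 axis, and EGR1, SIK1, RGCC and DHRS3 are higher in HepG2 and lower in HCT116.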

How the data were processed

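Total RNA of HepG2 and HCT116 cultures was hybridised to Affymetrix Human Gene 2.0 ST arrays, 1 array per group with RNA of 3 cultures pooled. The authors deposited log2 signal per transcript cluster, rounded to 2 decimals, which limits a fold to steps of 0.70%. The submitters' processing notes name GCOS, Affymetrix Expression Console and Transcriptome Analysis Console, and which normalization they applied is not stated in the sources read for this work. The deposited log2 values were used as they stand.

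The log2 value with vehicle was subtracted from that with MP-HX for each of 16098 clusters with 1 gene symbol (Python 3.11.15, pandas 2.3.3, numpy 2.4.6). Genes with several clusters were represented by the brightest one, and a 2-fold difference was counted as a call. Single arrays leave 0 residual degrees of freedom, and p-values were therefore not computed; the number of arrays limits the precision. Simulated arrays with known changes served to check how calls were counted.

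Genes named were the 30 furthest above and the 30 furthest below vehicle among genes brighter than the array median on at least 1 HepG2 array, up to 6 members of each list with the largest difference and its defining members, the genes of the study's RT-qPCR panel, genes past 2-fold on opposite sides of vehicle in the 2 lines, and up to 6 microRNA and 6 long noncoding genes. Further members of the lists, such as those near vehicle, were added to the text with their values known. The members and the 63 gene lists were chosen with earlier results of these data known. Of 1330 listed genes 719 had a named cluster, and 4 lists had none. Promoter and microRNA sequences came from RefSeq tables (GRCh38.p14), which held a promoter for 10749 of the 14884 genes and a mature sequence for 979 of 1072 microRNA genes. Alternatives were quantile normalization, centring, added constants of 16 or 64, folds of 1.5 and 3, bright genes alone, the mean of a gene's clusters and all 48226 clusters.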

Additional observations from a re-analysis of the deposited data

Results flagged for a closer look

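Among the 368 genes named by rule, 11 were at least 2-fold apart from vehicle in HepG2 and on the other side of vehicle by at least 1.5-fold in HCT116. Over all 14884 genes, 22 were so with the HepG2 value above vehicle and 4 with it below. Each line had 1 array per group and its own dose, and the difference between the lines was not tested. The stress and signalling genes among them were EGR1, with a log2 fold change of 2.84 in HepG2 and -0.81 in HCT116, the kinase SIK1, with 2.39 in HepG2 and -0.88 in HCT116, HSPA1B, with 2.19 in HepG2 and -0.82 in HCT116, and its near-identical copy HSPA1A, with 2.14 in HepG2 and -0.75 in HCT116. The cell cycle regulator RGCC had 2.13 in HepG2 and -1.45 in HCT116, and the repressor SNAI1 had 1.33 in HepG2 and -0.88 in HCT116. The keratin-associated gene KRTAP1-5 had 1.68 in HepG2 and -1.21 in HCT116, and the retinal reductase DHRS3 had 1.29 in HepG2 and -2.04 in HCT116. KRTAP1-5 was dim on both HCT116 arrays, at 2.96 with MP-HX and 4.17 with vehicle, so that its HCT116 value is uncertain. MIR3127 had 1.14 in HepG2 and -1.65 in HCT116, and BOP1, a factor of ribosome assembly, 1.07 in HepG2 and -1.20 in HCT116. MIR3127 was dim with vehicle in HepG2 (3.59) and with MP-HX in HCT116 (3.84). Its HepG2 value was 0.70, under 2-fold, when signals under the array median were raised to it. The only one of the 11 that was lower in HepG2 was IL1RAP, the accessory chain of interleukin 1 receptors, with -1.41 in HepG2 and 1.03 in HCT116.

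Outside the clusters with 1 gene symbol, 1012 of 32128 clusters were at least 2-fold apart between MP-HX and vehicle in HepG2. They have no gene name here and were not described.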

How the results depend on the processing

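No paired analysis was possible because each group had 1 array and no test was made, and for the same reason no replicate could be left out. The count of clusters at least 2-fold apart, 504 higher and 347 lower, depended on the threshold and on how dim signals were treated. A 1.5-fold threshold gave 1493 higher and 1247 lower and a 3-fold threshold 142 higher and 69 lower. Adding 64 to the linear signal gave 173 higher and 105 lower, adding 16 gave 345 higher and 212 lower, and all 48226 clusters gave 984 higher and 879 lower. Quantile normalization gave 480 higher and 366 lower, and centring each array on its median, which shifts every log2 fold change by 0.06, gave 598 higher and 307 lower. Raising signals under the array median to it, an alternative chosen after seeing the data, gave 472 higher and 315 lower. Of 199 named genes at least 2-fold apart, 194 remained so in the same direction after quantile normalization, 181 with 16 added, 122 with 64 added and 195 with the mean of all clusters of a gene, and 0 changed sign in a call. With 64 added, the median of the ATF4 and CHOP targets was 0.81 in place of 1.43, that of the kinesins -0.84 in place of -1.36, that of the replication fork genes -0.77 in place of -1.30 and that of homologous recombination -0.75 in place of -1.26, while the median of the matrix proteases was 0.29 with 16 added and 0.16 with 64 added in place of 0.67. Of the calls, those still past 2-fold with 64 added were 3 of 6 for p53 targets, 2 of 5 for autophagy, 3 of 5 for heat shock proteins and for cytokines, 0 of 3 for pro-apoptotic genes, 3 of 7 for cyclins and CDKs, 6 of 11 for mitotic kinases and 7 of 11 for kinesins. A difference near 2-fold in a dim gene is thus the least certain value.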

Other observations

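Some gene families that are not lists of their own also held several calls in 1 direction. They were chosen after their values were seen, and some of their members also stand in a list. Of 13 measured Ras-like GTPases, small proteins that switch signals or the actin skeleton, 7 lay at least 2-fold above vehicle in HepG2 and 0 lay 2-fold below it, and their median log2 fold change was 1.05 in HepG2 and 0.09 in HCT116. GEM was at 5.26 with MP-HX and 2.96, a dim signal, with vehicle in HepG2 (2.30). Of 17 Kruppel-like factors, zinc finger proteins of growth and differentiation, 5 were at least 2-fold higher and 0 lower, with KLF11, also in the TGF-beta list, at 2.34. AQP3, a channel for water and glycerol, was at 7.20 with MP-HX and 4.62 with vehicle (2.58), and the pseudogene AQP7P3 had 2.95 although AQP7 itself had 0.09. In contrast, 17 of 22 nucleoporins, the proteins of the nuclear pore, lay below vehicle, with a median of -0.44 and 0 at least 2-fold apart. The 471 ZNF genes held 10 higher and 12 lower members, with a median of 0.00.

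The following genes outside the lists were picked singly for their lower values and stand for no group. The alcohol dehydrogenase ADH6 was at 7.80 with MP-HX and 9.36 with vehicle (-1.56), the glycine-cleaving enzyme GLDC had -1.47, and HHEX, a homeobox factor of liver development, -1.32. TXNIP, an inhibitor of thioredoxin and of glucose uptake, was at 5.60 with MP-HX and 7.11 with vehicle (-1.51).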
